A study of Mus musculus with 10 samples.

Results

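Myelin genes of the mature oligodendrocyte were followed in the hippocampus of Ts65Dn mice, a model of Down syndrome, and of control mice. The set was taken by gene symbol from a list of 30 genes, and 29 of them were measured, of 19938 genes with a row of their own on the array. Evi2a shared its only row with other genes and was given no value. Each of the 29 genes had 1 row with no other gene on it, and Sept4 was found under its current symbol, Septin4. None of the 29 lay in a segment that is trisomic in Ts65Dn mice. Of the genes described most closely, Opalin lies on chromosome 19 (41061959 to 41077113 in GRCm38), Aspa on chromosome 11 (73304987 to 73326876), Pllp on chromosome 8 (94674895 to 94696242), Gpr37 on chromosome 6 (25668523 to 25689980) and Myrf on chromosome 19 (10208271 to 10240777).

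The oligodendrocyte wraps its membrane around axons of the central nervous system and compacts it into myelin, which speeds conduction and feeds the axon. A small number of structural proteins, a galactolipid-rich membrane and a transcription factor programme led by Olig, Sox10 and Myrf proteins mark the mature cell, and in the hippocampus myelin is densest in the fibre tracts (the alveus, fimbria and angular bundle) and sparser in the cell layers. Because precursors, newly forming cells and myelinating cells switch on different genes in sequence, myelin transcripts read out the last of these stages.

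Hippocampal RNA of 5 Ts65Dn males was set against that of 5 male control littermates, all 16 weeks old and on the same F1 hybrid B6C3B background. Ts65Dn mice carry an additional small chromosome that joins the distal end of mouse chromosome 16 (Mmu16), homologous to human chromosome 21, to the centromeric end of Mmu17, whose genes have no homologue on human chromosome 21. Both hippocampi of a mouse gave 1 RNA sample and 1 array, so each value below stands for 1 mouse. The comparison asks which hippocampal transcripts depend on the trisomy, and values are log2 signals, where a difference of 1 is a doubling.

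The arrays had like centres, with medians of 7.38 to 7.41, and no pair of arrays was identical. The mean of 127 genes of the Mmu16 segment was 7.56 to 7.62 in the Ts65Dn mice and 7.36 to 7.39 in the controls, and the 31 genes of the Mmu17 segment also lay higher in every Ts65Dn mouse (8.12 to 8.19 against 7.87 to 7.91), as the genotype labels require. Markers of the tissue were bright, with a mean of 11.71 to 11.78 over 14 neuronal genes and of 9.59 to 9.97 over 12 genes of hippocampal subfields, and all 29 myelin genes had a mean of at least 7.15 in both genotypes. Choroid plexus genes, which mark a tissue that adjoins the hippocampus, varied most, from 6.71 to 9.21 over the 10 mice.

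No myelin gene passed a test of difference between Ts65Dn and control hippocampi. By limma, 0 of the 29 passed an adjusted p of 0.05, where 0.316% of the 23410 rows tested did, and 0 reached an unadjusted p of 0.05, where 3.16% of the rows did. The rank method of the kind used in the study called 0 of the 29 higher and 0 lower, against 2.86% and 2.45% of all rows, and in 0 of the 29 did the genotypes fail to overlap, against 0.884% of all rows. The log2 differences (Ts65Dn minus control) ran from -0.15 for Gpr37 to 0.14 for Ninj2, with 8 above 0 and 21 below, and their median was -0.05, where the median over all rows was -0.0028. Over all rows, 11132 differences were above 0 and 12278 below. The smallest unadjusted p was 0.159 and every adjusted p rounded to 1. The 95% interval of the change stayed within 1.5-fold in either direction for all 29 genes and within 1.2-fold for 9 of them. The standard errors were wide, with a median of 0.109 on the log2 scale against 0.0551 over all rows. In whole tissue, a lower signal from fewer oligodendrocytes and one from less RNA per oligodendrocyte cannot be told apart.

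**Figure D1:**
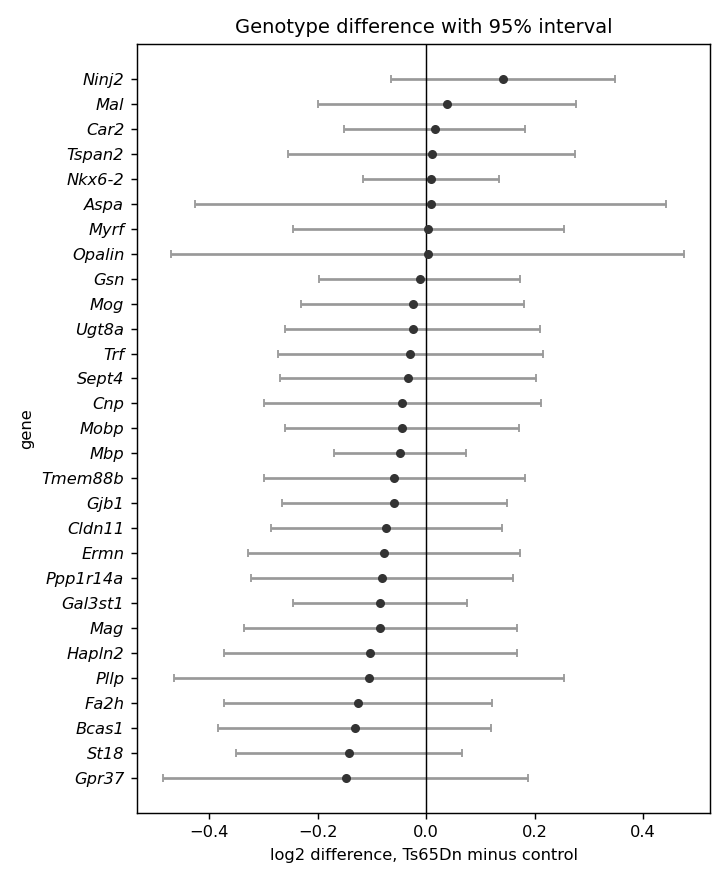
Log2 difference in signal between Ts65Dn and control hippocampi for each of 29 myelin genes (points) with its 95% interval from limma (bars), n = 5 mice per genotype. Every interval includes 0, the values run from -0.15 (Gpr37) to 0.14 (Ninj2), and Opalin and Aspa have the widest intervals.

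The 5 genes of compact myelin had log2 differences of -0.11 to 0.04. Mbp, the basic protein that holds the cytoplasmic faces of the membrane together, measured 12.47, 12.47, 12.25, 12.45 and 12.58 in Ts65Dn replicates 1 to 5 and 12.48, 12.47, 12.44, 12.54 and 12.54 in the controls. All controls lay between the lowest and the highest Ts65Dn mouse, and the difference was -0.05 ± 0.0555 (SE; n = 5 per genotype, adjusted p = 1 by limma). Pllp, plasmolipin, a relative of Mal in the myelin membrane, spread further, with 9.82, 9.37, 9.21, 8.90 and 9.86 in the Ts65Dn mice against 9.54, 9.36, 9.47, 9.62 and 9.70 in the controls. Its lowest value came from replicate 4 and not from replicate 3, and its difference was -0.11 ± 0.164. The other 3, Mobp, Mal and the tetraspanin Tspan2, had differences of -0.05, 0.04 and 0.01. Among the junction proteins, Cldn11, the claudin of the tight junctions between myelin layers, and Gjb1, an oligodendrocyte connexin, had differences of -0.07 and -0.06.

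Myelin surface proteins held both ends of the range. Mag, the sialic acid binding glycoprotein of the innermost membrane facing the axon, measured 11.36, 11.18, 10.88, 11.07 and 11.59 in the Ts65Dn mice and 11.14, 11.28, 11.26, 11.43 and 11.40 in the controls. Mog, the glycoprotein of the outermost surface, measured 10.86, 10.78, 10.37, 10.52 and 10.88 against 10.71, 10.74, 10.59, 10.76 and 10.73. For both genes replicates 3 and 4 of the Ts65Dn mice were below every control and replicate 5 was above every control. For Mog, Ts65Dn replicates 1 and 2 were above every control as well. The differences were -0.08 ± 0.115 for Mag and -0.02 ± 0.0934 for Mog. Mog lies on Mmu17 (37010740 to 37023398 in GRCm38), outside the trisomic segment, which ends at 8986648. Ninj2, a surface adhesion protein, was the one with the smallest p. Its signal was 8.02, 7.82, 8.13, 8.02 and 8.32 in Ts65Dn mice and 7.88, 7.92, 7.69, 8.12 and 7.98 in controls, a difference of 0.14 ± 0.0940 (adjusted p = 1 by limma), and unlike in most of the set, Ts65Dn replicate 3 was among the higher mice. Gpr37, a G protein coupled receptor of oligodendrocytes, measured 10.57, 10.27, 10.27, 10.22 and 11.05 in Ts65Dn mice and 10.57, 10.38, 10.54, 10.75 and 10.87 in controls. Here 3 Ts65Dn mice were below every control and 1 was above, with a difference of -0.15 ± 0.153. Opalin, a glycoprotein of the paranodal membrane, had the largest spread within genotypes of the 29 genes. It ran 9.73, 9.32, 8.76, 8.74 and 9.93 in the Ts65Dn mice and 9.42, 9.08, 9.18, 9.42 and 9.36 in the controls, so that the genotype means were nearly equal (difference 0.0025 ± 0.216) while the Ts65Dn mice spanned 1.19 log2 units and the controls 0.34. The remaining surface genes, Hapln2 and Tmem88b, had differences of -0.10 and -0.06.

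In the cytoplasm and cytoskeleton group of 6 genes all differences were negative, from -0.13 to -0.01. Cnp, the phosphodiesterase that keeps cytoplasmic channels of myelin open, measured 12.09, 12.01, 11.63, 11.85 and 12.39 in Ts65Dn mice and 11.93, 12.02, 11.99, 12.05 and 12.20 in controls, and the difference was -0.04 ± 0.116. Bcas1, a protein of newly myelinating and myelinating oligodendrocytes, measured 9.60, 9.65, 9.14, 9.45 and 9.91 against 9.56, 9.68, 9.72, 9.78 and 9.67. The controls sat close together in both genes, between the Ts65Dn extremes, and the difference for Bcas1 was -0.13 ± 0.114. Sept4, a septin of the filament scaffold of myelin, was the most even in the controls (SD 0.0281) and varied 9.78 times as much in the Ts65Dn mice (SD 0.275).

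Of the 6 genes of lipids and metabolism, Gal3st1, which makes sulfatide, measured 7.25, 7.18, 7.07, 6.90 and 7.36 in the Ts65Dn mice and 7.29, 7.22, 7.20, 7.23 and 7.25 in the controls. Replicates 3 and 4 were again the lowest and replicate 5 the highest of all 10 mice, and the difference was -0.08 ± 0.0729. Fa2h, which hydroxylates the fatty acids of myelin galactolipids, had no such top value in replicate 5, with 10.50, 10.32, 9.86, 10.08 and 10.32 against 10.44, 10.38, 10.35, 10.44 and 10.09 and a difference of -0.13 ± 0.113. Aspa, aspartoacylase, which frees acetate from N-acetylaspartate for lipid synthesis, had the widest range in the set. Its signal was 9.20, 9.02, 8.29, 8.56 and 9.56 in the Ts65Dn mice, a 2.41-fold change from replicate 3 to replicate 5, and 8.87, 8.86, 8.77, 9.01 and 9.06 in the controls. The genotype means differed by 0.0082 ± 0.198 all the same. Ugt8a, which makes galactosylceramide, had a difference of -0.03, Trf, transferrin, of -0.03 and Car2, a carbonic anhydrase, of 0.02.

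The 3 transcription factors did not share a pattern. Myrf, the factor required for the myelin gene programme, measured 9.63, 9.43, 9.41, 9.46 and 10.07 in Ts65Dn mice and 9.59, 9.56, 9.47, 9.73 and 9.63 in controls, with replicate 5 far above the rest and a difference of 0.0038 ± 0.114. St18, a zinc finger factor of the Myt1 family, measured 8.51, 8.60, 8.39, 8.75 and 8.43 against 8.83, 8.59, 8.45, 8.92 and 8.58. Its difference was -0.14 ± 0.0948, and here replicate 5 was low and replicate 4 the highest of the Ts65Dn mice. Nkx6-2, a homeodomain factor of maturing oligodendrocytes, was the steadiest of all genes in the Ts65Dn mice (SD 0.0385) with a difference of 0.01.

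**Figure D2:**
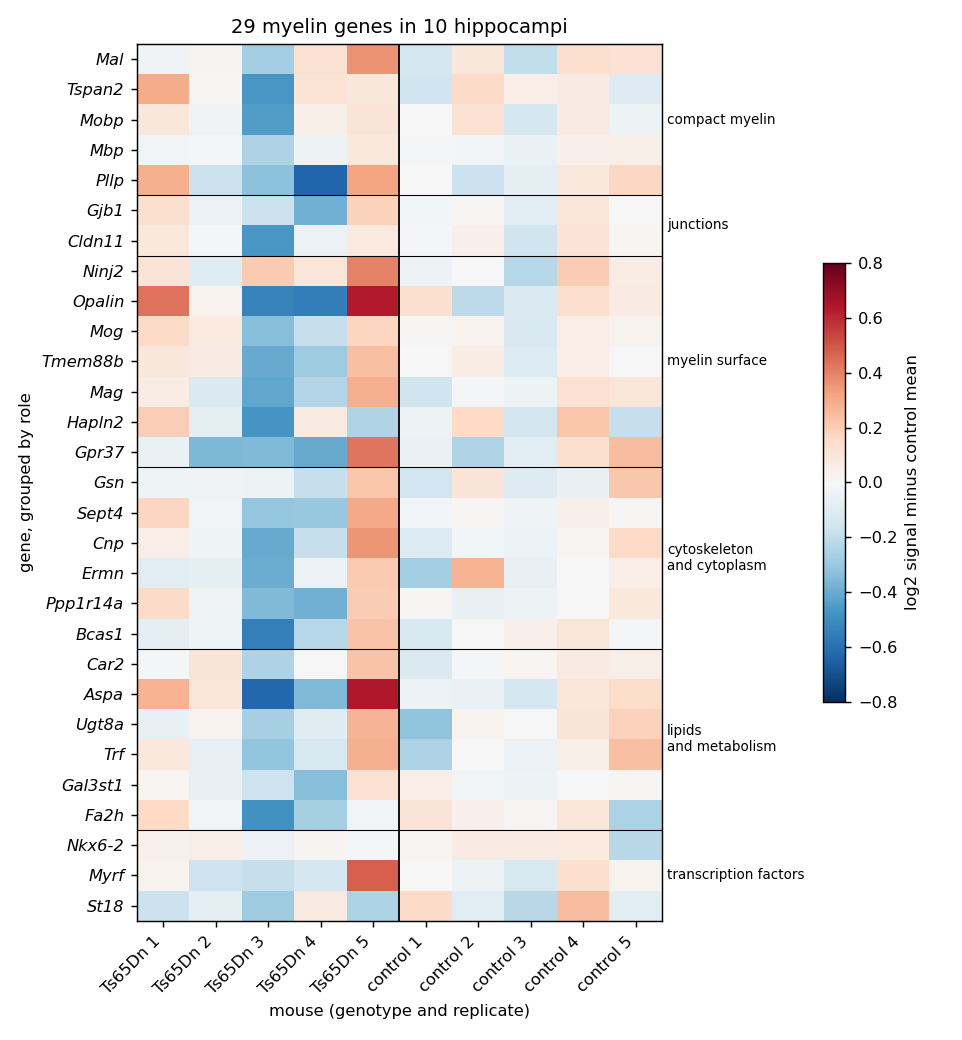
Signal of 29 myelin genes (one line per gene, grouped by role) in 10 mice, as log2 signal minus the control mean of the gene (colour). The controls are pale, Ts65Dn replicate 3 is blue for 28 of the genes, replicate 4 for 21, and replicate 5 is red for 25.

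The Ts65Dn mice lay further from each other in these genes than the controls did, while the genotype means lay close. The mean of the 29 genes was 9.99, 9.87, 9.59, 9.74 and 10.13 in Ts65Dn replicates 1 to 5 and 9.85, 9.92, 9.83, 9.99 and 9.95 in the controls. Ts65Dn replicates 3 and 4 were below every control, replicate 5 was above every control, and the genotype means were 9.86 ± 0.212 and 9.91 ± 0.0663 (SD, n = 5 per genotype), a difference of -0.05. Leaving out Ts65Dn replicate 3 turned the sign of that difference (0.02), while leaving out replicate 5 gave -0.11. From the lowest to the highest mouse the mean changed 1.46-fold in Ts65Dn and 1.12-fold in controls, and the SD was 3.19 times as large in Ts65Dn. No test was made of this ratio, since it was noticed in these data.

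Gene by gene the SD was larger in Ts65Dn for 26 of the 29, against 59.7% of all rows, and the median ratio of the SDs was 2.38 against 1.13 over all rows. The genes with the larger control SD were St18, Nkx6-2 and Gsn. All 5 controls lay within the range of the Ts65Dn mice for 21 of the 29 genes, against 29.4% of all rows. Since the genes moved together, they do not count as 29 separate observations of the spread. The spread was also read with Ts65Dn mice left out. Replicates 3 and 5 had the lowest and highest mean, so leaving them out narrows the Ts65Dn spread by construction. Without Ts65Dn replicate 3 the SD ratio of the mean was 2.50, and 22 genes had the larger SD in Ts65Dn, against 55.1% of all rows. Without replicate 5 the ratio was 2.62 with 21 genes, against 55.8% of all rows. Without both it was 1.89 with 15 of 29 genes, against 48.1% of all rows. The median ratio per gene was then 1.09, against 0.97 over all rows. Without replicate 4, the ratio of the mean was 3.48 and 26 genes had the larger SD in Ts65Dn, against 54.1% of all rows.

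**Figure D3:**
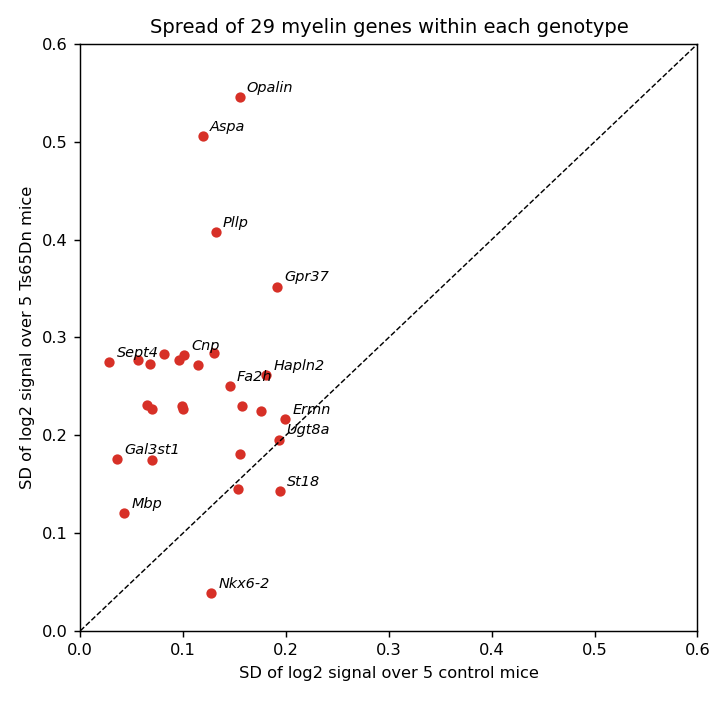
SD of the log2 signal over 5 Ts65Dn mice (vertical axis) against the SD over 5 control mice (horizontal axis) for 29 myelin genes (points), with the line of equal SD dashed. 26 points lie above the line, Opalin, Aspa and Pllp furthest from it, and Gsn, St18 and Nkx6-2 lie below it.

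Ts65Dn replicate 3 was the lowest of the 10 mice for 19 of the 29 genes, against 10.1% of all rows, and it lay below every control for 25. Replicate 5 was the highest for 21, against 10.7% of all rows. Replicate 4 was the lowest for 7 genes, against 18.5% of all rows, and below every control for 16. The median deviation from the control mean was -0.34 in replicate 3, -0.18 in replicate 4 and 0.23 in replicate 5, and the median change from replicate 3 to replicate 5 was 1.47-fold. The controls held the lowest value for 3 genes and the highest for 6.

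Across the 10 mice the genes rose and fell together. With genotype means removed, the median Pearson correlation was 0.642 over the 406 pairs of genes, and 369 of the pairs were positive. In the Ts65Dn mice alone the median was 0.752 and in the controls alone 0.366. Ts65Dn replicates 3 and 5 carried much of this, and without both the median over the pairs was 0.379. The closest pair was Mog and Tmem88b, a transmembrane protein (r = 0.979), and the most opposed pair was Gsn, gelsolin, and Nkx6-2 (r = -0.549). One component carried 69.3% of the variance of the 29 genes, with loadings of the same sign for 27, and St18 and Nkx6-2 near 0. These correlations are a description over 10 mice, 5 per genotype, that share their arrays and normalisation.

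Set against the mean of the other 28 genes, Aspa (r = 0.979), Mag (0.970), Cnp (0.947), Tmem88b (0.945), Sept4 (0.941), Mog (0.936), Bcas1 (0.914) and Mbp (0.901) followed it most closely. In all, 15 of the 29 genes had r above 0.8, where 0.863% of all rows had such a correlation with the mean of the 29, and 25 had r above 0.5. The 4 that did not were Ninj2 (0.372), Hapln2 (0.344), Nkx6-2 (0.012) and St18 (-0.010). By role, the median r was 0.902 for the cytoskeleton and cytoplasm, 0.888 for the myelin surface, 0.836 for the junctions, 0.792 for lipids and metabolism, 0.764 for compact myelin and 0.012 for the transcription factors, of which Myrf alone followed the set (0.828).

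The low values of Ts65Dn replicates 3 and 4 fell on many of the same genes, but their depth differed from gene to gene. Mag, Mog, Cnp, Opalin, Aspa, Pllp and Gjb1, among others, were below every control in both mice. Replicate 3 was below replicate 4 for 21 genes, by most for Tspan2 (0.57 log2 units), Hapln2 (0.54), Mobp (0.49), Cldn11 (0.42) and Mal (0.39). Mobp measured 11.34 in replicate 3 and 11.83 in replicate 4, with controls of 11.64 to 11.90, so that only replicate 3 was low. Replicate 4 was below replicate 3 for 8 genes, by most for Pllp (0.31), Gjb1 (0.21), Gal3st1 (0.18), Gsn (0.14) and Ninj2 (0.11). Gjb1 measured 7.39 in replicate 3 and 7.18 in replicate 4, with controls of 7.47 to 7.65. A second component, with 12.7% of the variance, held this contrast, with scores of 0.66 in replicate 3 and -0.59 in replicate 4, and Hapln2, Tspan2 and Mobp opposed to Gpr37 and Pllp. Replicate 4 was also the array with the widest deviations from the other arrays over all rows, with an interquartile range of 0.130 against 0.0759 to 0.118 in the other 9 mice, and its 13 microglial genes had the highest mean (8.87 against 8.47 to 8.71). Their part in the result was not tested.

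**Figure D4:**
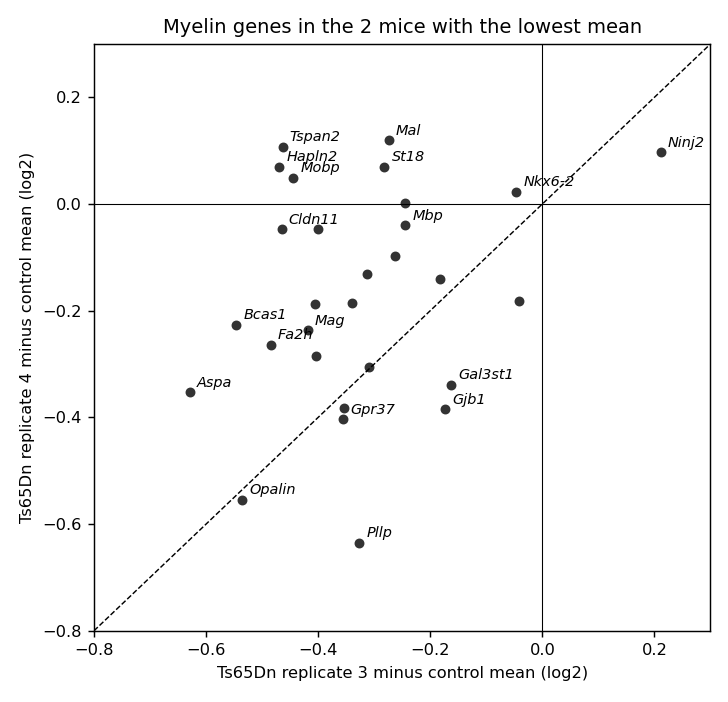
Deviation from the control mean (log2) of 29 myelin genes in Ts65Dn replicate 3 (horizontal axis) and Ts65Dn replicate 4 (vertical axis), with equal deviation dashed. 21 genes lie above the dashed line (lower in replicate 3), among them Tspan2, Hapln2 and Mobp near the control mean in replicate 4, and Pllp, Gjb1 and Gal3st1 lie below it.

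Promoter sequence was looked up for the genes that move together, since Myrf, a member of the set, is known to bind the letters CTGGCAC or CTGGTAC. For 22 of the 29 genes, the 250 bases before a RefSeq (GRCm38.p6) start site were searched on both strands. The other genes, Mbp among them, were left out of this search, so the shares below do not cover them. The Myrf motif stood in 4 of the 22 windows (18.2%), those of Mag, Mog, Cnp and Hapln2, and in 5.88% of 27025 windows of all genes. Over the 10 mice, the r with Myrf itself was 0.853 for Mag, 0.824 for Cnp, 0.663 for Mog and 0.051 for Hapln2. Among the genes whose window held no Myrf motif, it ran from -0.099 (Nkx6-2) to 0.919 (Gpr37). The values of the 4 genes with the motif lay within that range. Whether the motif bears on following Myrf was not tested. The windows of Mag and Mog, which followed the set, and of Hapln2, which did not, are shown 5′ to 3′ on the strand of the gene, with the Myrf motif and a shorter Sox motif (ACAAAG or ACAATG, or the other strand of either) in capitals. The Mag window is chr7:30914923-30915172 on the minus strand, that of Mog chr17:37023399-37023648 on the minus strand, and that of Hapln2 chr3:88027512-88027761, also on the minus strand.
Mag: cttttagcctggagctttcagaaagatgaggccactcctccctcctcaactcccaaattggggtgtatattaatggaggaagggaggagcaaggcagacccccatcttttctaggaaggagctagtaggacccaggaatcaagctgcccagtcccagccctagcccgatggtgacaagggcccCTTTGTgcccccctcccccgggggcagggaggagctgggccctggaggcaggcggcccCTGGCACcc
Mog: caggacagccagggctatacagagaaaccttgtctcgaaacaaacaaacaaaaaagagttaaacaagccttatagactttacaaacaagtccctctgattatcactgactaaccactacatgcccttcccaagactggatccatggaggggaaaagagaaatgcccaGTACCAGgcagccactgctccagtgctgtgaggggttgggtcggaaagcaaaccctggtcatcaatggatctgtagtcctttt
Hapln2: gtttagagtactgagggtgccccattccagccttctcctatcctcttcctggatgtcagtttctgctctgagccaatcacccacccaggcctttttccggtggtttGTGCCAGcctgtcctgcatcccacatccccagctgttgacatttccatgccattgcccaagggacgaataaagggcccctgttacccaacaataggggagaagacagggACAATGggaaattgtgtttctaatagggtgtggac
The Myrf motif ends 2 bases before the start site in Mag, 76 before it in Mog and 137 before it in Hapln2, where it stands on the other strand, as it does in Mog. The Sox motif was in 9 of the 22 windows (40.9%, against 25.4% of all), with 6 matches in Mobp, and the letters CATATG or CAGATG, an E-box of the kind bound by Olig proteins, were in 8 (36.4%, against 17.4% of all). The shares rest on few windows, and a match is a description of the letters.

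Other genes of the lineage were read in the same way, and none of the 230 other genes in the lists below passed an adjusted p of 0.05 by limma. Of 47 other myelin and oligodendrocyte genes, 10 had a positive and 37 a negative log2 difference, with a median of -0.06. Of all 23410 rows, 12278 had a negative difference. The SD was larger in Ts65Dn for 42 of the 47, against 59.7% of all rows. The mean of the 47 was 9.22, 9.14, 8.91, 9.02 and 9.32 in the Ts65Dn mice and 9.15 to 9.22 in the controls. The Ts65Dn mice stood in the same order as in the 29 genes. The 2 means correlated with r = 0.989 over the 10 mice (0.956 without the 2 mice farthest from the median). The smallest p belonged to Klk6, a secreted protease (-0.29 ± 0.140), Cmtm5 (-0.13 ± 0.0722) and Sirt2, a deacetylase (-0.06 ± 0.0413), and all had an adjusted p of 1 by limma. The rank method called 4 of the 47 lower, Klk6, Cmtm5, Ndrg1 and Unc5b, a share of which the background above is 2.45%.

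Olig1 and Olig2, basic helix-loop-helix factors that start the oligodendrocyte lineage, lie in the trisomic segment of Mmu16 and had the smallest p among the 16 lineage factors. Olig1 measured 10.12, 10.05, 9.94, 9.99 and 10.23 in Ts65Dn mice and 9.80, 9.92, 9.80, 9.85 and 9.78 in controls, and every Ts65Dn mouse lay above every control. Its difference was 0.24 ± 0.0549 (adjusted p = 0.241 by limma). Within that higher level the Ts65Dn mice kept the order of the myelin genes, with replicates 3 and 4 lowest and replicate 5 highest, and the r of Olig1 with the mean of the 29 genes, genotype means removed, was 0.875. Olig2 measured 9.50, 9.35, 9.30, 9.30 and 9.41 in Ts65Dn and 9.49, 9.11, 9.12, 9.25 and 8.91 in controls, a difference of 0.20 ± 0.0913 (adjusted p = 1 by limma) with overlap through control replicate 1. The rank method called both higher, against 2.86% of all rows. Sox10, the SRY-box factor that acts with Olig2 and Myrf, had a mean of 9.03 ± 0.232 in Ts65Dn and 9.12 ± 0.0483 in controls (r = 0.826). Sox6, a factor of precursors, had a difference of -0.08 ± 0.0368 (adjusted p = 1). The rank method also called Sox8, a relative of Sox10, lower (-0.12), against 2.45% of all rows.

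Earlier stages followed the myelin genes in part. Newly forming oligodendrocytes are marked by Enpp6, a choline phosphodiesterase, and Gpr17, a receptor that is lost as the cell matures. Enpp6 measured 7.71, 7.66, 6.94, 7.09 and 7.96 in Ts65Dn mice and 7.64, 7.58, 7.79, 8.02 and 8.20 in controls (difference -0.37 ± 0.193, adjusted p = 1 by limma), again lowest in replicates 3 and 4, with r = 0.885 to the mean of the 29 genes. For Gpr17 the difference was -0.17 ± 0.0925 and r was 0.272, and the median r over the 15 genes of this stage was -0.0016, although their list mean had r = 0.753 (0.638 without the 2 mice farthest from the median). Of 14 precursor genes, C1ql1 had the smallest p (-0.14 ± 0.0578, adjusted p = 1), followed by Ptprz1 (-0.09 ± 0.0422) and Lhfpl3 (-0.12 ± 0.0574), and the median r of the list was 0.0905. The list mean ranged from 8.50 to 8.61 over the 10 mice. The rank method called Enpp6, Gpr17, C1ql1 and Lhfpl3 lower, 2 genes of each stage, against 2.45% of all rows.

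Genes that supply myelin lipids split in their behaviour. Elovl1 and Cers2, which elongate very long fatty acids and build ceramides from them, followed the 29 genes (r = 0.965 and 0.960), while the sterol enzymes Sqle (0.15 ± 0.0607), Hmgcs1 (0.16 ± 0.0656) and Dhcr7 (0.12 ± 0.0524), which many cell types use, did not (r = -0.320, -0.170 and -0.076). Their differences reached an unadjusted p of 0.05 but had an adjusted p of 1 each. The rank method called all 3 higher, against 2.86% of all rows. Genes of the node and paranode, where myelin meets the axon, had differences of -0.03 to 0.08 over 18 genes. Cntn1, contactin, had the smallest p among them (0.06 ± 0.0345, adjusted p = 1). The median r of this list with the mean of the 29 genes was 0.0604. In 2 of its genes, Cntn2 (0.918) and Epb41l3 (0.827), r was above 0.8.

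Markers of other cells put the mice in other orders than the myelin genes. For the neuronal and astrocyte lists the order was partly reversed (Spearman rho of -0.636 and -0.552, genotype means removed). The neuronal list mean ranged from 11.73 to 11.78 in Ts65Dn and from 11.71 to 11.77 in controls (r = -0.516 with the mean of the 29 genes), and the astrocyte list mean from 10.47 to 10.55 and from 10.49 to 10.59 (r = -0.429). With the astrocyte mean of each mouse subtracted, the genotype difference of the myelin mean was 0.0018, and with the neuronal mean subtracted it was -0.06. Endothelial genes had a list mean of 8.84 to 8.94 in Ts65Dn and 8.74 to 9.04 in controls (r = -0.088). Choroid plexus genes followed the mice in another order, highest in Ts65Dn replicate 2 (9.21) and control replicate 5 (9.01), with r = 0.084. The 29 genes had r of -0.389 (Nkx6-2) to 0.415 (Mal) with that list. Car2, Trf and Gsn, which choroid plexus or its surroundings are also known to express, had r = 0.376, 0.25 and 0.304. Ermn had 0.392 and Mbp 0.377. The part of choroid plexus in the signal of these genes was not tested. The rank method called C1qc of the microglial, Slco1a4 of the endothelial and Nefm of the neuronal genes higher (2.86% of all rows were). It called Slc7a10 of the astrocyte and Egr2 of the Schwann cell genes lower (2.45% of all rows were). Schwann cell genes, a sign of attached nerve, had a list mean of 6.54 to 6.69 in Ts65Dn and 6.49 to 6.78 in controls.

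Neighbouring tissue could enter a dissected hippocampus, and its markers were set beside the myelin genes. All 12 thalamic genes had negative differences, from -0.68 to -0.0073, as did 12278 of the 23410 rows tested. None passed an adjusted p of 0.05 by limma. The rank method called 2 of the 12 lower, Prkcd (-0.36 ± 0.221) and Zic4 (-0.14 ± 0.0892), against 2.45% of all rows. The mean of the 12 genes was lowest in Ts65Dn replicate 3 (7.30) and highest in control replicate 5 (8.01), with r = 0.392. The 10 genes of striatum and septum had a mean of 7.73 to 7.81 in Ts65Dn and 7.73 to 8.02 in controls (r = 0.119). Among 12 genes of hippocampal subfields, Wfs1, a gene of CA1 pyramidal cells, had a difference of -0.35 ± 0.0690 (adjusted p = 0.0925 by limma), and the list mean had r = -0.345. In these lists the rank method called Drd1, Penk, C1ql2 and Iyd higher and Drd2, Trpc4 and Wfs1 lower. The shares over all rows were 2.86% higher and 2.45% lower. The part of dissection in the spread of the myelin genes was not tested.

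**Figure D5:**
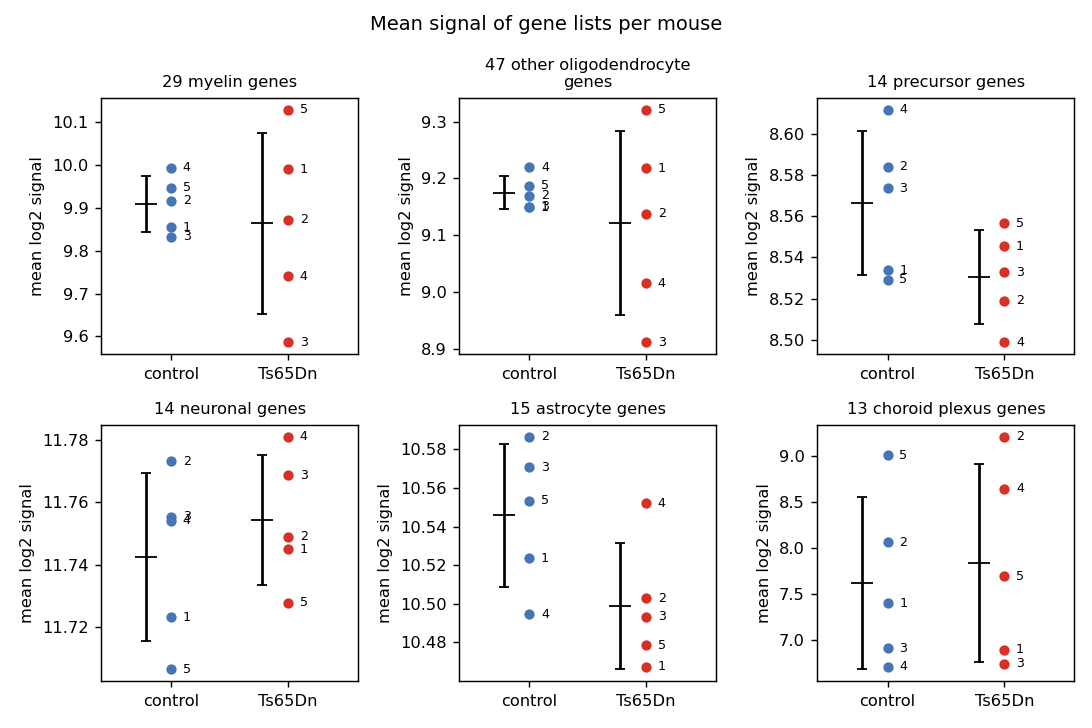
Mean log2 signal per mouse of 6 gene lists in control (blue) and Ts65Dn (red) mice, with replicate numbers beside the points and the genotype mean ± SD as bars (n = 5 per genotype); each panel has its own scale. The Ts65Dn mice spread widely in the myelin and other oligodendrocyte panels in the order 3, 4, 2, 1, 5, and in other orders elsewhere.

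Outside the set itself, the 10 genes that followed the mean of the 29 most closely over the 10 mice, of 19909 ranked with genotype means removed, were Phldb1 (r = 0.973), Foxn3 (0.971), Ikzf1 (0.969), Plekhh1 (0.966), Elovl1 (0.965), Cers2 (0.960), Plxnb3 (0.950), Fnbp1 (0.949), Adamts4 (0.946) and Tmbim1 (0.943). Phldb1, a pleckstrin homology domain protein, measured 9.08, 8.97, 8.72, 8.80 and 9.31 in Ts65Dn mice and 8.86 to 9.09 in controls. Plxnb3, a plexin, measured 8.81, 8.50, 8.25, 8.28 and 9.10 against 8.44 to 8.72. In both, replicates 3 and 4 were below and replicate 5 above every control, and for Plxnb3 replicate 1 was above every control as well. Ikzf1, a zinc finger factor best known from blood cells, followed the set at a low and narrow signal of 6.36 to 6.50. Plekhh1, Adamts4, Elovl1 and Cers2 were already among the lists of oligodendrocyte and lipid genes.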

How the data were processed

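The authors hybridised hippocampal RNA of 10 mice to Affymetrix Mouse Gene 1.0 ST arrays, 1 array per mouse, and normalised the arrays by RMA, and the deposited values are log2 signals per transcript cluster. RMA, limma and the genome build mm10 stand in the processing notes of the submitters. The notes on the amount of RNA labelled differ between sources. Of 35556 rows, 23410 had a gene symbol in the platform annotation and were tested. A gene with several rows was read from the row with the highest mean.

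Ts65Dn and control mice were compared with limma 3.58.1 in R 4.3.3 (lmFit and eBayes, two-sided, Benjamini-Hochberg over all tested rows, threshold 0.05), without covariates. The rank method trimmed 25% of the ranks over 25 pairs of arrays. Means per mouse and correlations (Python 3.11.15) are descriptions with no p. The 29 genes and all lists were chosen with earlier results of these data known. Values in every mouse were printed for the 6 genes with the smallest p, the 4 with the largest SD within genotypes, and Mbp, Mog, Mag, Cnp and Myrf, of other lists 2 to 4 genes with the smallest p with Olig1 and Olig2, and outside the 29 genes the 10 nearest genes. Values shown for Mobp, Gjb1, Sept4, Enpp6, Sox10, Phldb1 and Plxnb3, and the split of Ts65Dn replicates 3 and 4, were chosen after the values were seen. The labels number the mice of each genotype and call them biological replicates. The number of arrays limits the precision. Alternatives were other rows, filters, normalisations, variance models, thresholds and each mouse left out. Probe-level signals were not used here.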

Additional observations from a re-analysis of the deposited data

Results flagged for a closer look

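Within a genotype, 8 of 94 groups of 5 mice held 1 mouse far from the other 4 (a gap above 0.71 of the range). For independent groups chance gives about 1 in 20. These groups share their mice and many of their genes move together, so the count cannot be judged against that share. Ts65Dn replicate 3 stood apart for Mobp (11.34, against 11.75 to 11.89 in the other Ts65Dn mice), for Cldn11 (10.50, against 10.92 to 11.05) and for the mean of the newly forming oligodendrocyte list (8.17, against 8.25 to 8.28). For Mobp and Cldn11, the other 4 Ts65Dn mice, replicate 4 included, lay close together. Among the controls, Mog was low in replicate 3 (10.59, against 10.71 to 10.76), Fa2h in replicate 5 (10.09, against 10.35 to 10.44) and Nkx6-2 in replicate 5 (7.58, against 7.81 to 7.87). The node and paranode list mean was high in control replicate 4 (10.45, against 10.34 to 10.37), and the striatum and septum list mean in control replicate 2 (8.02, against 7.73 to 7.81).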

How the results depend on the processing

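None of the 29 genes was called under any of 26 alternatives, the 10 with 1 mouse left out among them, and no call was made with a replicate block (0 genes). The genotype difference of their mean was -0.23 in SD units after scaling each gene and otherwise -0.06 to 0.0018 over other summaries, normalisations and references, and -0.11 to 0.02 with 1 mouse left out. In the other lists, 0 genes were called in the main setting, 28 by the rank method (12 higher and 16 lower, where 2.86% and 2.45% of all rows were), 1 with array weights and 1 at an adjusted p of 0.1, and 0 to 1 with 1 mouse left out. The 1 gene was Wfs1 each time (adjusted p = 0.0272 by limma without Ts65Dn replicate 3). The median pairwise correlation of 0.642 was 0.724 over the 18 genes most restricted to oligodendrocytes and 0.752 with a replicate block. It was 0.545 to 0.722 with 1 mouse left out, lowest without Ts65Dn replicate 3, next lowest without replicate 5 (0.549) and highest without replicate 4, and 0.379 without replicates 3 and 5. The SD ratio of the mean, 3.19, fell to 1.89 without Ts65Dn replicates 3 and 5 and was 2.50 to 3.48 without Ts65Dn replicate 3, 4 or 5, the only mice left out here and chosen after the values were seen. Differences near 0 changed sign: Aspa with a choroid plexus covariate (-0.0022), Mog with array weights (0.0262) and Myrf with quantile normalisation (-0.0019). With 1 mouse left out the ranges were -0.16 to 0.14 for Opalin, -0.15 to 0.17 for Aspa, -0.21 to 0.0262 for Pllp, -0.0815 to 0.0011 for Mbp, -0.0738 to 0.0537 for Mog, -0.14 to 0.0464 for Cnp and -0.11 to 0.0504 for Myrf. The labels do not say that a replicate number marks a shared litter or day, and the mice were not treated as pairs. Deviations of same-numbered mice correlated with r of 0.0313 (replicate 4) and 0.269 to 0.507 (the others), and 4 of 5 Ts65Dn mice were closest to the control of their own number, a hint of pairing from the data and not from the design.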
